A study of Mus musculus with 24 samples.

Results

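Acetylation of lysine 27 on histone H3 (H3K27ac) was read in mouse embryonic stem cells at the ends of protein-coding genes where none of Klf4, Oct4 or Sox2 had a listed peak in asynchronous cells. The regions were selected on the asynchronous peak lists. Peaks of both asynchronous H3K27ac lists were merged, and a region was taken when it held a peak in both lists, was narrower than 5000 bp, had its nearer edge within 1 kb of a gene end and overlapped no peak of any asynchronous Klf4, Oct4 or Sox2 list. This gave 4706 regions, out of 34684 that held a peak in both asynchronous H3K27ac lists. They lay by 4835 genes, 2647 of them contained a gene end, and 897 lay by 2 or more genes. Their absence of factor peaks, position and width are therefore not findings, and their behaviour in mitosis is described here. A region without a listed factor peak is not shown to be free of the factor.

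The series is ChIP-seq of V6.5 cells, a C57BL/6-129 hybrid embryonic stem cell line derived at E3.5. All cells had been kept on irradiated feeders in serum with LIF and then moved to gelatin with the MEK and Gsk3 inhibitors of 2i medium. Mitotic cells (2 H3K27ac, 3 Klf4, 2 Oct4 and 2 Sox2 libraries) had 7 h of the spindle poison nocodazole and were gathered by shake-off. The labels give its dose as 100 ug/ml, a unit that was not checked. Asynchronous cells (2 H3K27ac, 3 Klf4, 1 Oct4 and 1 Sox2 library) had no nocodazole. A single Klf4 library came from a mix of 10% stem cells and 90% neural progenitors. Nothing in the labels says that libraries of a group came from separate cultures, so any spread between them may be technical.

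H3K27ac marks active promoters and enhancers. During mitosis the chromosomes condense, transcription largely stops and many transcription factors leave the DNA, and marks or factors that stay in place are spoken of as bookmarks. Active promoters are known to be depleted of nucleosomes just upstream of the start. Most promoters of widely expressed genes lie in CpG islands and depend on factors such as the ETS family, NRF1, YY1 and CREB, while Klf4, Oct4 and Sox2 are the factors best known for the stem cell state.

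Promoter windows of 3 of the 10 strongest kept regions and 3 of the 10 strongest lost ones are shown, because they carry both the rule and the exceptions of the sequence result given further on. Each runs from 250 bases before to 50 after a gene start, from RefSeq on GRCm38.p6 (mm10), 5′ to 3′ along the gene. Capitals mark the letters CCGGAAG (ETS core), GCGCATGCG (NRF1 site), AAGATGGCG (YY1 site) or TGACGTCA (CRE, the CREB site) on either strand. These 4 motifs were put in capitals after their shares had been seen.
Alkbh1: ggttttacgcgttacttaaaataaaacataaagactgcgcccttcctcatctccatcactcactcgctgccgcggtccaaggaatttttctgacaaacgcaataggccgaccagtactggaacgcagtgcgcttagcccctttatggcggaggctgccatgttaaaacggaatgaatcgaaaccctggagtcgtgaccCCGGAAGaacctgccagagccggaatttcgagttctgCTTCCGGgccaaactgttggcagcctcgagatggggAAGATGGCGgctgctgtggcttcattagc
Btf3: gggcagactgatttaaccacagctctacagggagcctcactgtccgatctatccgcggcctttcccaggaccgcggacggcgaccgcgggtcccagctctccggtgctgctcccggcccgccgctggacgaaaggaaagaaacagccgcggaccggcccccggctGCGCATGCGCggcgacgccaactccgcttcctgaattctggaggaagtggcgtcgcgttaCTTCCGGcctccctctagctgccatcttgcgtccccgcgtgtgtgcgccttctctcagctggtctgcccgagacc
Cdk12: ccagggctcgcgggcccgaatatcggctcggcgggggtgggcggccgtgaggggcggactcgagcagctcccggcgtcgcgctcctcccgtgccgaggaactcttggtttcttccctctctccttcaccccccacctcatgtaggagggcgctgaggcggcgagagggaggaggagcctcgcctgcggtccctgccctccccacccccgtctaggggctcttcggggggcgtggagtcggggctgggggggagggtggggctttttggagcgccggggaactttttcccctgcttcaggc
Chac1: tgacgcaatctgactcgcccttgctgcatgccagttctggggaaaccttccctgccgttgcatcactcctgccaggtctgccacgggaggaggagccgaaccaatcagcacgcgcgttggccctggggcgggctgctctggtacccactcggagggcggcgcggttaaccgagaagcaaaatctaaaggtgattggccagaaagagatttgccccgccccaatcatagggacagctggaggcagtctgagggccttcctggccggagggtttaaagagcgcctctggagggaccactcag
Pigu: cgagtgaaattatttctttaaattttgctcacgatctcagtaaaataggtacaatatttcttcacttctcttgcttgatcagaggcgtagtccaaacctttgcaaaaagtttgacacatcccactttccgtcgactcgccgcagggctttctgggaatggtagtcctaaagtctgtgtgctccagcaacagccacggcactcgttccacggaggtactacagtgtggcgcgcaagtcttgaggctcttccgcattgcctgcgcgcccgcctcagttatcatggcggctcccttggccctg
Cnpy3: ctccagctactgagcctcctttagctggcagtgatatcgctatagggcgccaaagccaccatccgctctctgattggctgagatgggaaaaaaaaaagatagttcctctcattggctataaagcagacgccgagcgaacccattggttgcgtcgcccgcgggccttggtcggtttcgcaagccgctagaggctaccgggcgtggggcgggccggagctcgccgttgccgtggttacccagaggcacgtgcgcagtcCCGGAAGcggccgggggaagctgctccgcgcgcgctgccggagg
The first 3 windows belong to regions with a peak in both mitotic H3K27ac lists: Alkbh1 (chr12:87443790-87444089, minus strand), Btf3 (chr13:98316918-98317217, minus strand) and Cdk12 (chr11:98203055-98203354, plus strand). The other 3 belong to regions with a peak in neither: Chac1 (chr2:119350992-119351291, plus strand), Pigu (chr2:155357375-155357674, minus strand) and Cnpy3 (chr17:46752165-46752464, minus strand). Alkbh1 held the ETS core on both strands and a YY1 site, and Btf3 held an ETS core beside an NRF1 run that reads the same on both strands. Cdk12 was kept with none of the 4 motifs, so the letters alone did not sort the regions. The window of Cnpy3 held an ETS core although its region was lost. That core lay outside the lost region, which met only the upstream edge of the window.

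Most of the factor-free gene-end regions still carried a listed H3K27ac peak in mitosis. Mitotic library 1 had a peak in 3209 regions (68.2%, 95% Wilson interval 66.8 to 69.5%) and mitotic library 2 in 2962 (62.9%, 61.6 to 64.3%), where 57.8% and 53.2% of all 34684 asynchronous H3K27ac regions had one in mitotic 1 and mitotic 2. The mean over libraries was 65.6% ± 3.71 (SD, n = 2). The libraries largely picked the same regions, since 84.4% of those found in mitotic 1 were found in mitotic 2, and 91.4% of those found in mitotic 2 were found in mitotic 1. Regions with a peak in both mitotic lists are called kept and those with a peak in neither are called lost. Of the 4706 regions, 2708 (57.5%, 56.1 to 58.9%) were kept, against 47.9% of all asynchronous H3K27ac regions. Lost regions numbered 1243 (26.4%, 25.2 to 27.7%), against 36.9% of all. The remaining 755 had a peak in 1 list, 501 in mitotic 1 alone and 254 in mitotic 2 alone. Read depth is unknown, so a lost region is one below the listing threshold and not one shown to be free of the mark, and the intervals cover counting error only.

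Factor-free gene-end regions sat between the other classes of region. Recovery was 68.2% and 62.9% in mitotic 1 and 2, against 80.9% and 76.0% for the 6628 gene-end regions of the same width limit that did overlap a Klf4, Oct4 or Sox2 peak. The difference was −12.7 points in mitotic 1 and −13.0 in mitotic 2 (mean −12.9; exact two-sided sign-flip permutation test, p = 0.5, which is the smallest p that 2 libraries allow). Against the 13477 factor-free regions away from gene ends, of which 41.4% and 37.2% were recovered, the difference was 26.8 and 25.8 points (mean 26.3; same exact test, p = 0.5). Both directions held in both libraries, but this test cannot pass 0.05 with 2 libraries.

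The gaps were smaller between regions of like strength in asynchronous cells. Strength is the percentile of a region's highest deposited fold among all peaks of its list, averaged over both asynchronous lists, and its median was 66.6 for the factor-free gene-end regions, 79.4 for the factor-bound ones and 44.2 for the distal ones. With recovery compared within quintiles of strength, weighted to the factor-free gene-end regions, the difference shrank to −3.97 and −3.30 points against factor-bound regions and to 9.63 and 7.60 points against distal ones, in mitotic 1 and 2. Within the strongest quintile, mean recovery was 97.8% for factor-free and 97.5% for factor-bound gene-end regions. In the weakest quintile it was 29.8% for factor-free and 36.8% for factor-bound gene-end regions, with distal regions at 21.0%. Nearly all gene-end regions of the strongest quintile were recovered, so it leaves little room for a difference to show.

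**Figure D1:**
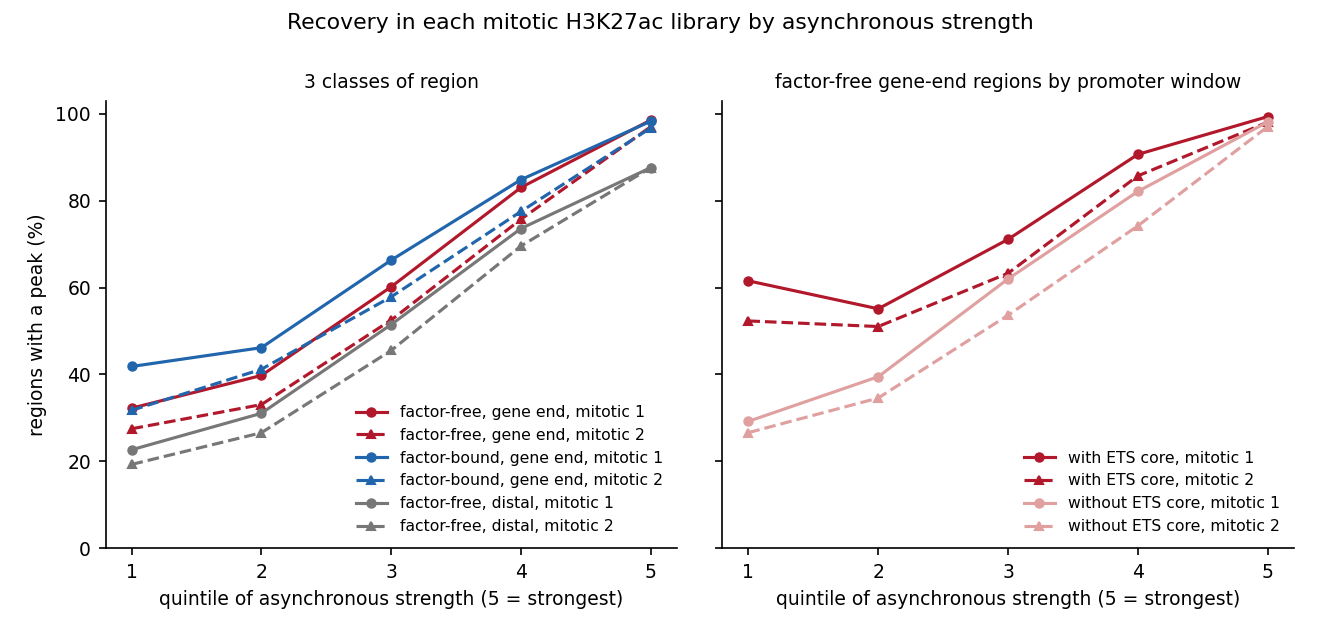
Percent of regions with a peak in mitotic H3K27ac library 1 (solid) and 2 (dashed) against quintile of asynchronous strength. Left, factor-free gene-end, factor-bound gene-end and factor-free distal regions; right, factor-free gene-end regions with and without an ETS core in the promoter window, where the curves lie furthest apart in quintile 1 (61.5% and 52.3% with, 29.2% and 26.6% without).

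Kept regions were broad and strong, and lost regions small and weak. Median width was 1262.5 bp in kept regions, 816 bp in those found in 1 mitotic list and 720 bp in lost ones, and median strength was 81.1, 55.7 and 40.8 in the same order. A region counted as recovered at 1 bp of overlap, so a wider one had more room to meet a mitotic peak. The part of this in the contrast of widths was not tested. The deposited fold of kept regions had a median of 6.69 in mitotic 1 and 6.63 in mitotic 2, against 11.8 in asynchronous 1 and 11.1 in asynchronous 2. These folds are the authors' own values, scaled within each library, so the levels of the 2 states are set side by side here and not compared. The fold given for a region is the highest of any listed peak that shares 1 bp with it. A mitotic peak can reach past the region, so its fold may stem from signal outside it. The order of regions differed more between states than between libraries of a state. Over the 2708 kept regions, Spearman's rho of the folds was 0.82 between the mitotic libraries and 0.92 between the asynchronous ones, but 0.50 between mitotic 1 and asynchronous 1 and 0.47 between mitotic 2 and asynchronous 2. These are descriptions across regions, which share libraries and are not replicates.

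The strongest kept regions belonged to genes of basic cell work. The region of Alkbh1, which encodes a dioxygenase that removes methyl groups from nucleic acids, lay at chr12:87441884-87444984 and had folds of 20.4 and 17.4 in mitotic 1 and 2, against 53.2 and 49.6 in asynchronous 1 and 2. At Atp6v0c, the membrane ring subunit of the vacuolar proton pump (chr17:24167734-24171366), they were 33.4 and 29.4 in mitotic cells, against 50.3 and 50.1 in asynchronous cells. At both genes the mitotic libraries gave folds close to each other. Btf3, which encodes the beta subunit of the nascent polypeptide-associated complex (chr13:98315339-98318173), had 22.7 and 23.9 in mitotic cells, against 45.1 and 44.3 in asynchronous cells. Cdk12, a kinase of the RNA polymerase II tail (chr11:98201171-98203552), had 26.2 and 23.9 in mitotic cells, against 50.6 and 40.5 in asynchronous cells. Among the rest of the 10 strongest were regions at Ddx6 (an RNA helicase of processing bodies), Rpl17 (a protein of the large ribosomal subunit), Cnot1 (the scaffold of the CCR4-NOT deadenylase), Epc2 (a chromatin regulator) and Psenen (a subunit of gamma-secretase). The mitotic folds of these 5 lay between 10.7 and 30.0.

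The strongest lost regions were weaker in asynchronous cells than any of these. Chac1, which encodes a glutathione-degrading enzyme induced by the unfolded protein response, had 2 separate lost regions. The upstream one (chr2:119349979-119351082) had no peak in mitotic 1 or 2, against folds of 18.0 and 13.4 in asynchronous 1 and 2, and the downstream one (chr2:119351205-119351850) had none in either mitotic list, against 14.7 and 12.6. The nearest mitotic peak lay 11.7 kb or more from both. Pigu, a subunit of the transamidase that attaches GPI anchors (chr2:155356870-155357441), had no mitotic peak, against folds of 15.3 and 12.6 in asynchronous cells, and the nearest mitotic peak was 23.9 kb away. Rbmx, an X-linked RNA-binding protein gene (chrX:57391794-57393136), had none in mitotic cells, against 11.3 and 15.4. Lmbrd2, Iqgap1 (an actin scaffold), Gm14326, Xylb (xylulokinase), Cnpy3 and Dcbld2 (a transmembrane receptor-like protein) made up the rest of the 10. Cnpy3, whose product chaperones Toll-like receptors, stood apart: its region (chr17:46752436-46753219) had no mitotic peak, but mitotic peaks lay 0.175 and 0.145 kb from it in mitotic 1 and 2.

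**Figure D2:**
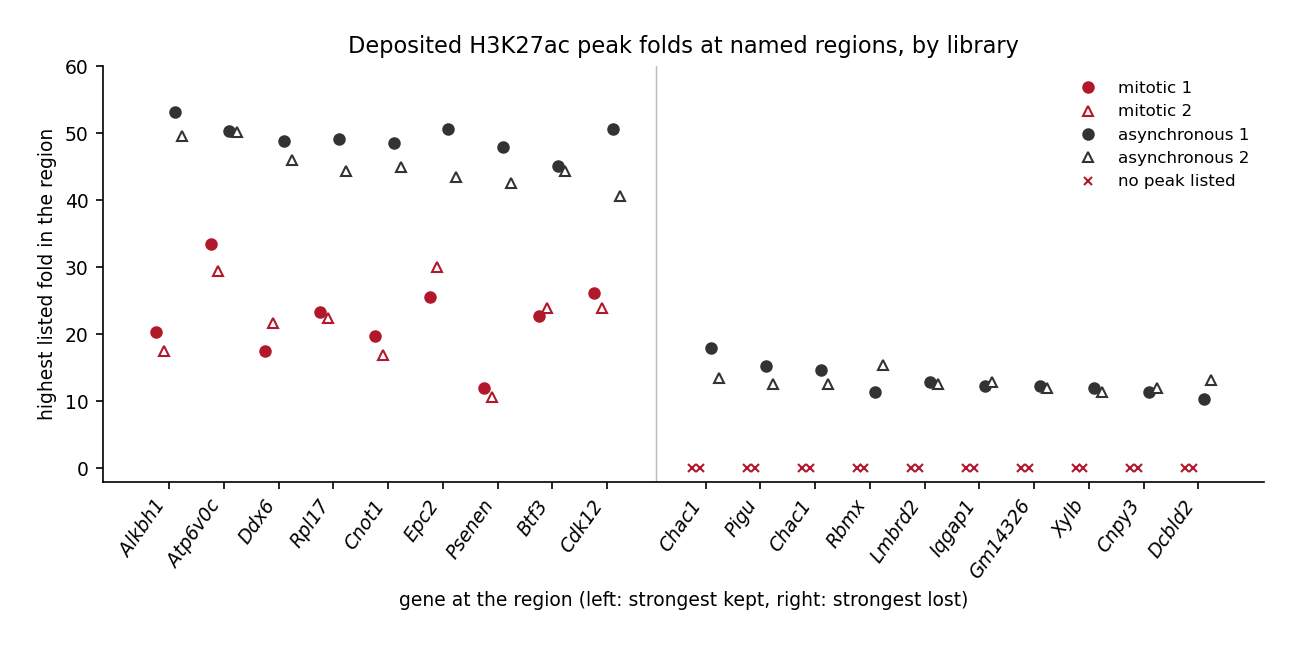
Highest deposited H3K27ac fold (vertical axis, a ratio to background, each library on its own scale) at 9 of the 10 strongest kept regions (left) and the 10 strongest lost regions (right), in mitotic 1 and 2 and asynchronous 1 and 2. Crosses at 0 mark a library with no listed peak; the 10 lost regions span asynchronous folds of 10.4 to 18.0.

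Some lost regions had a mitotic peak close by, and most did not. Of the 1243 lost regions, 220 (17.7%) had a mitotic peak within 500 bp in at least 1 library and 965 (77.6%) had none within 1 kb in either. Over all 12803 lost asynchronous H3K27ac regions, 12.4% had one within 500 bp and 82.6% had none within 1 kb. Among lost factor-bound gene-end regions these shares were 19.9% and 76.4%, and among lost factor-free distal regions 9.18% and 85.1%. A near peak was thus more common at lost gene-end regions of both kinds than over all lost regions. At the lost factor-free gene-end regions the median gap to the nearest peak was 11828 bp in mitotic 1 and 14104 bp in mitotic 2. Of 730 lost regions with the start of a promoter window within 1 kb, 108 shared that start with another asynchronous region that was kept. Among regions with a peak in a single mitotic list, the 5 strongest were at Fhl3, Tpi1 (triosephosphate isomerase, a glycolytic enzyme), Psat1 (an enzyme of serine synthesis), Tada3 (a subunit of acetyltransferase complexes) and Lars (leucyl-tRNA synthetase). At Tpi1 (chr6:124812416-124814631) the fold was 4.38 in mitotic 1 with no peak in mitotic 2, against 18.7 and 17.7 in asynchronous 1 and 2, and a mitotic 2 peak lay 0.494 kb from the region.

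Regions at gene starts were kept more often than regions at 3′ ends. Strand, taken from the promoter windows, placed 3453 regions at a start (by a window or an annotated 5′ end) and 400 at 3′ ends only, and left 853 without a call. Of the regions at a start 61.7% were kept (60.1 to 63.3%), against 27.3% (23.1 to 31.8%) of those at 3′ ends only. Recovery in mitotic 1 and 2 was 72.0% and 67.1% at starts, against 38.8% and 33.5% at 3′ ends only. Strength moved with this, with a median of 70.0 at starts and 41.4 at 3′ ends only. At matched strength the kept shares were 20.6% and 17.0% in quintile 1, 28.5% and 16.4% in quintile 2, 47.4% and 28.8% in quintile 3, 70.8% and 63.6% in quintile 4 and 96.4% and 80.0% in quintile 5, at starts and at 3′ ends only. The share at starts was the higher in each of the 5 quintiles, although the top quintile held only 20 regions at 3′ ends only. Factor-bound gene-end regions ran the same way, with 73.8% kept at starts and 41.7% at 3′ ends only.

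Regions near starts on both strands were kept more often than regions near starts on 1 strand. Only starts of promoter windows within 1 kb were counted here. For 424 regions there was a start on each strand, and of these 78.3% (74.1 to 82.0%) were kept, against 60.4% (58.6 to 62.1%) of 2909 with starts on 1 strand. Mitotic 1 and 2 recovered 86.6% and 82.8% of the regions with starts on both strands, against 70.7% and 65.9% of those with starts on 1 strand. Their median strength was 79.6 and 68.9. Within quintiles 1 to 5 of strength the kept shares were 29.6%, 53.7%, 58.2%, 77.8% and 97.9% for starts on both strands, against 20.1%, 27.3%, 47.3%, 70.1% and 96.1% for starts on 1 strand. The share was higher for starts on both strands in each quintile, and the lowest quintile held 27 such regions. Among factor-bound gene-end regions the shares were 83.1% for both strands and 73.3% for 1 strand, but in quintile 2 they were 29.2% and 33.3%, the other way round.

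**Figure D3:**
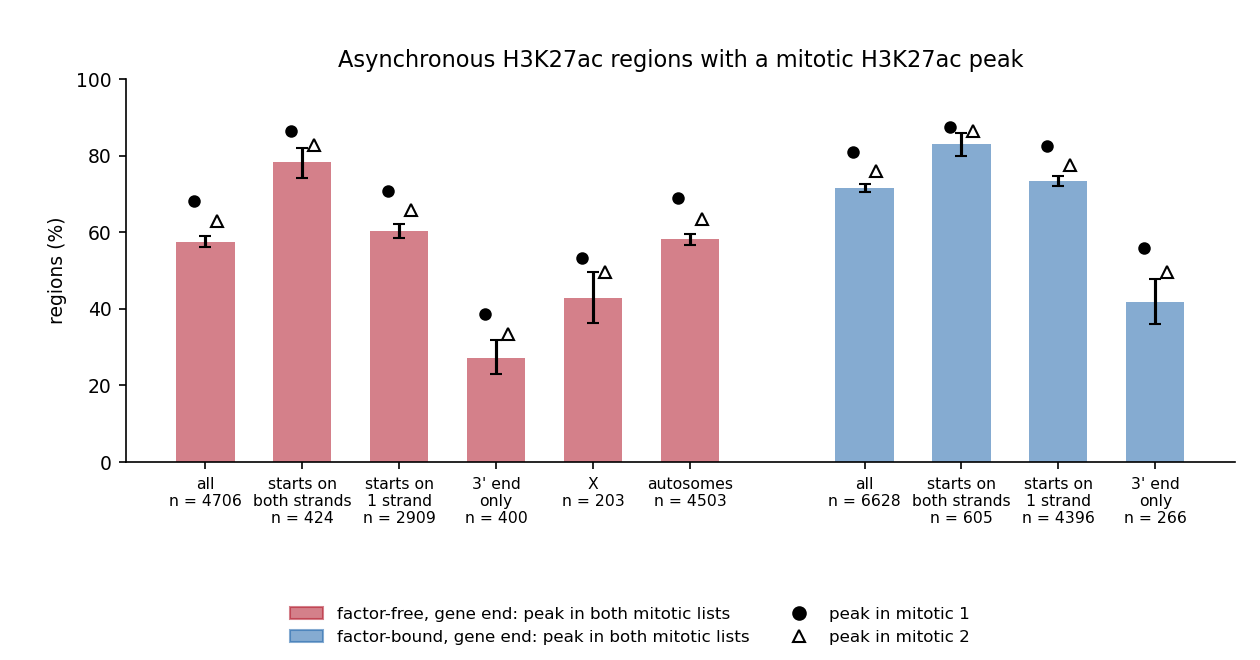
Percent of H3K27ac regions with a peak in both mitotic lists (bars, with 95% Wilson intervals for counting error), in mitotic 1 (dots) and in mitotic 2 (triangles). Factor-free gene-end regions range from 27.3% kept at 3′ ends only to 78.3% at starts on both strands; factor-bound gene-end regions stand to the right.

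The outline of the mark around the start differed between the states. Peak coverage was scored at 50 bp steps around the 1982 starts with a kept region. In mitotic 1 and 2 the share of starts covered climbed without a break, from 63.6% and 63.3% at 200 bp upstream to 91.6% and 91.0% at 200 bp downstream. In asynchronous 1 and 2 it fell short of its upstream level just before the start, with 60.3% and 54.2% covered at 100 bp upstream, against 70.5% and 67.8% at 300 bp upstream, and then reached 96.5% and 96.7% downstream. The notch was in both asynchronous lists and in neither mitotic list. The 3450 starts with a kept factor-bound region showed notches of −8.49 and −13.1 points in asynchronous 1 and 2, against 0 and −0.174 points in mitotic 1 and 2. Peaks were listed with a width that depends on the caller's joining of nearby signal, and its part in the notch was not tested. Mitotic peaks also reached past the asynchronous edge in 61.3% (mitotic 1) and 61.9% (mitotic 2) of kept regions, while their median span was 1207.5 and 1219 bp against a region width of 1262.5 bp.

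**Figure D4:**
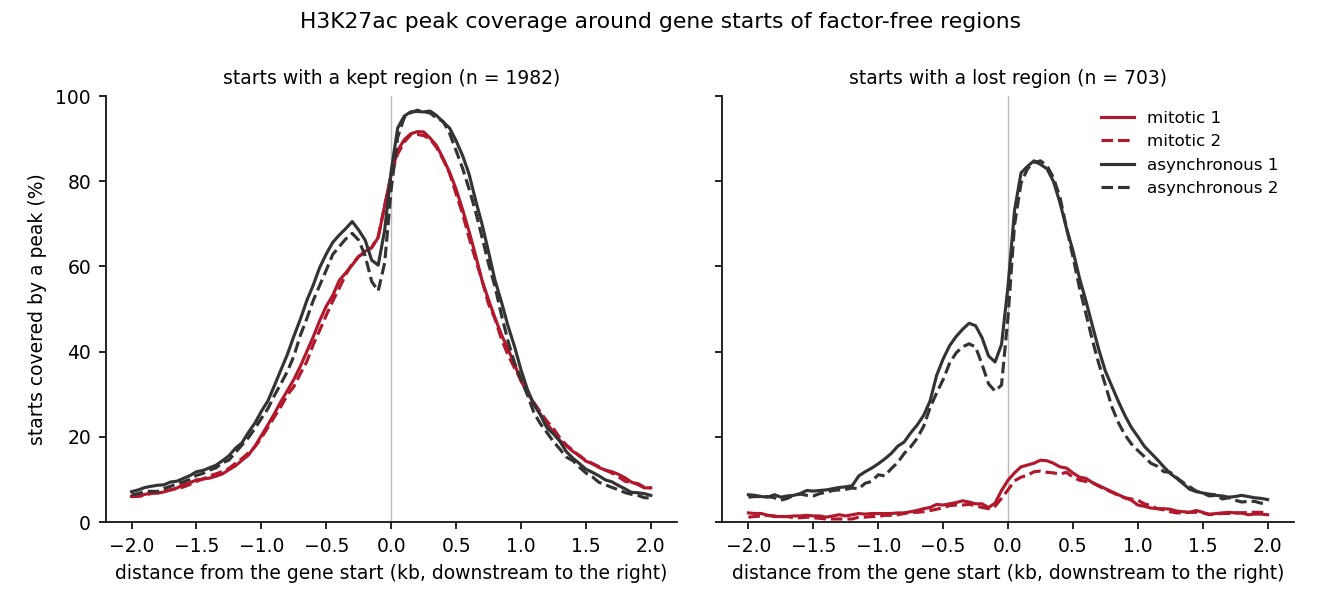
Percent of gene starts covered by an H3K27ac peak (vertical axis) by distance from the start in kb (horizontal axis), in mitotic 1 and 2 and asynchronous 1 and 2, for starts with a kept region (left, n = 1982) and a lost region (right, n = 703). The asynchronous curves dip to 60.3% and 54.2% at 0.1 kb upstream in the left panel, and the mitotic curves do not dip there.

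Windows of kept starts held the ETS core more often than windows of lost starts. It was found in 28.2% of the 1982 windows of kept regions and in 12.5% of the 703 windows of lost regions, where 11.6% of all 21263 windows of protein-coding genes held it. The YY1 site was in 6.05% of kept windows and 1.14% of lost ones (1.83% of all), the NRF1 site in 5.85% and 2.84% (2.35% of all), and the CRE in 4.84% and 1.71% (2.23% of all). Within strength quintiles 1 to 4 the NRF1 site was always more frequent in kept windows. The YY1 site was not in quintile 2 (0.671% of kept, 1.21% of lost), nor the CRE in quintile 4 (3.66% and 3.90%). In quintile 5, with only 5 lost windows, 8.89% of 1001 kept ones held the YY1 site. Motifs of other kinds did not split the regions this way. CACCC, the core of the sites that Klf factors read, was in 53.7% of kept and 64.2% of lost windows (59.5% of all), the GC box of Sp factors, GGGCGG, in 55.5% and 60.5% (46.2% of all), and the CCAAT box of NF-Y in 47.3% and 46.4% (38.2% of all). The E-box CACGTG was in 10.8% of kept and 9.53% of lost windows (7.84% of all) and the TATA box TATAAA in 6.36% and 5.12% (12.6% of all). A window was counted where it held the letters on either strand, and one place can answer to 2 motifs or to both strands. A window that served regions of different states was counted under each, so the kept and lost sets are not wholly separate. A match describes letters and is no evidence that a factor was bound.

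Turned round, a region whose window held an ETS core was kept more often at the same asynchronous strength. Of 784 such regions 75.6% (72.5 to 78.5%) were kept, against 58.7% of 2549 without one. Mitotic 1 and 2 recovered 84.1% and 79.8% with an ETS core, against 69.2% and 64.4% without. In quintiles 1 to 5 of strength the kept shares were 41.5%, 43.9%, 55.5%, 81.9% and 97.4% with an ETS core, against 16.8%, 26.0%, 46.6%, 67.8% and 96.0% without one. The gap was widest in the weakest quintile, which held 65 regions with an ETS core. Factor-bound gene-end regions with an ETS core were also kept more often, 82.4% of 998, against 72.6% of 4003 without. A YY1 site went with 86.2% kept of 145 regions, against 61.6% without, but its regions were stronger, with a median strength of 86.7, against 69.6.

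Lost starts were also poorer in CpG. The ratio of observed to expected CpG in the window had a median of 0.82 at kept starts, 0.77 at starts found in 1 mitotic list and 0.71 at lost starts, against 0.57 over all windows. Strength moved with this too. Within quintiles 1 to 4 of strength the medians were 0.75, 0.80, 0.78 and 0.78 at kept starts, against 0.71, 0.67, 0.71 and 0.75 at lost starts. Quintile 5 held 1001 kept windows, with a median of 0.86, and only 5 lost ones. GC content moved little, with medians of 59.3% at kept and 60.3% at lost starts over all quintiles. The factor-bound gene-end regions had a higher GC content, 64.7%, and the GC box in 79.8% of their windows.

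Genes of the housekeeping machinery made up the most retained groups, before strength was taken into account. Of 4835 genes with a factor-free region at an end, 3043 (62.9%) had a kept one. Among cytosolic ribosomal protein genes 50 of 84 had such a region, and it was kept at 48, with Rpl10l found in 1 mitotic list and Rpl3l lost; both of these are paralogs known for restricted expression. Rpsa, a protein of the small ribosomal subunit, had folds of 22.7 and 24.2 in mitotic cells, against 42.5 and 41.7 in asynchronous cells. Of 45 mitochondrial ribosomal protein genes 43 were kept, with Mrpl41 in 1 mitotic list and Mrps22 lost. All 17 genes of mitochondrial protein import that had a region kept it, among them Tomm20, a receptor of the outer membrane, at 23.5 and 21.0 in mitotic cells, against 31.0 and 25.9 in asynchronous cells. Genes of the respiratory chain kept it at 45 of 50, splicing factors at 24 of 26, aminoacyl-tRNA synthetases at 16 of 18 and proteasome subunits at 24 of 28.

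Genes of the cell cycle belonged to the same end of the range. DNA replication genes kept the mark at 25 of 28. Mcm5, a subunit of the replicative helicase, had folds of 31.9 and 36.2 in mitotic cells, against 26.9 and 19.2 in asynchronous cells. The mitotic folds are those of peaks that met the region and may reach past it. The gene lies on chromosome 8, which held a larger share of the mitotic than of the asynchronous peaks, as given further on. Mitotic machinery genes kept it at 23 of 27, among them Incenp, a scaffold of the chromosomal passenger complex, with 7.39 and 9.84 in mitotic cells, against 27.3 and 24.4 in asynchronous cells, and Aurkb, its kinase, with 4.41 and 5.67, against 21.5 and 18.1. Genes of DNA repair kept it at 23 of 27. At their own mix of strength quintiles all genes with a region were kept at 80.8%, where DNA replication genes stood at 89.3%, at 80.3%, where mitotic machinery genes stood at 85.2%, and at 71.1%, where DNA repair genes stood at 85.2%. Each of these shares of all genes lay inside the Wilson interval of its list. Translation initiation factors (18 of 24), chaperones (21 of 29) and ubiquitin enzymes (21 of 29) were nearer to the 62.9% of all such genes. So were RNA polymerase subunits (6 of 9), numbered zinc finger genes (116 of 177) and vesicle traffic genes (38 of 61). The list of translation initiation factors also held Eif4a3 and Eif5a, so its name does not suit every member.

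Developmental regulators were at the other end. Of 10 germ layer regulators with a factor-free region, only Eomes, a T-box factor of mesoderm and endoderm, kept it, with folds of 4.65 and 5.76 in mitotic cells, against 8.69 and 8.32 in asynchronous cells. Gbx2, Irx5 and Meis1, all homeobox genes, were among those found in mitotic 1 alone, and Meis2, Msx2, Neurog1, Olig1 and Olig2 were lost. The wide region at Olig1, a bHLH factor of oligodendrocytes (chr16:91269706-91271829), had no peak in either mitotic list, against 7.69 and 9.45 in asynchronous 1 and 2, and its nearest mitotic peak was 12.7 kb away. At their own mix of strength quintiles, 42.2% of all genes with a region were kept, against 10.0% of these 10. Of 41 naive pluripotency genes, 11 had a factor-free region, while 17 had a region of 5000 bp or more instead and 9 a factor-bound one. The 11 therefore do not stand for the whole list. Of the 11, 5 kept the region (45.5%), close to the 44.6% of all genes at the same quintiles. Among these 5 were Gdf3, Klf4, Sall4 and Stat3. Nr0b1, a nuclear receptor gene on the X, was lost in both mitotic lists, against 12.3 and 10.6 in asynchronous cells, and so was Lifr, the LIF receptor, against 4.13 and 6.62. At Nanog the factor-free region lay at the 3′ end and had no peak in mitotic 1 and 5.12 in mitotic 2, against 5.30 and 4.25 in asynchronous cells. At Klf4 it also lay at the 3′ end and the mitotic libraries differed widely, with 6.61 in mitotic 1 and 38.6 in mitotic 2, against 5.01 and 5.59 in asynchronous cells. The mitotic values are folds of whole peaks that met the region, and whether their signal lay inside it was not tested.

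**Figure D5:**
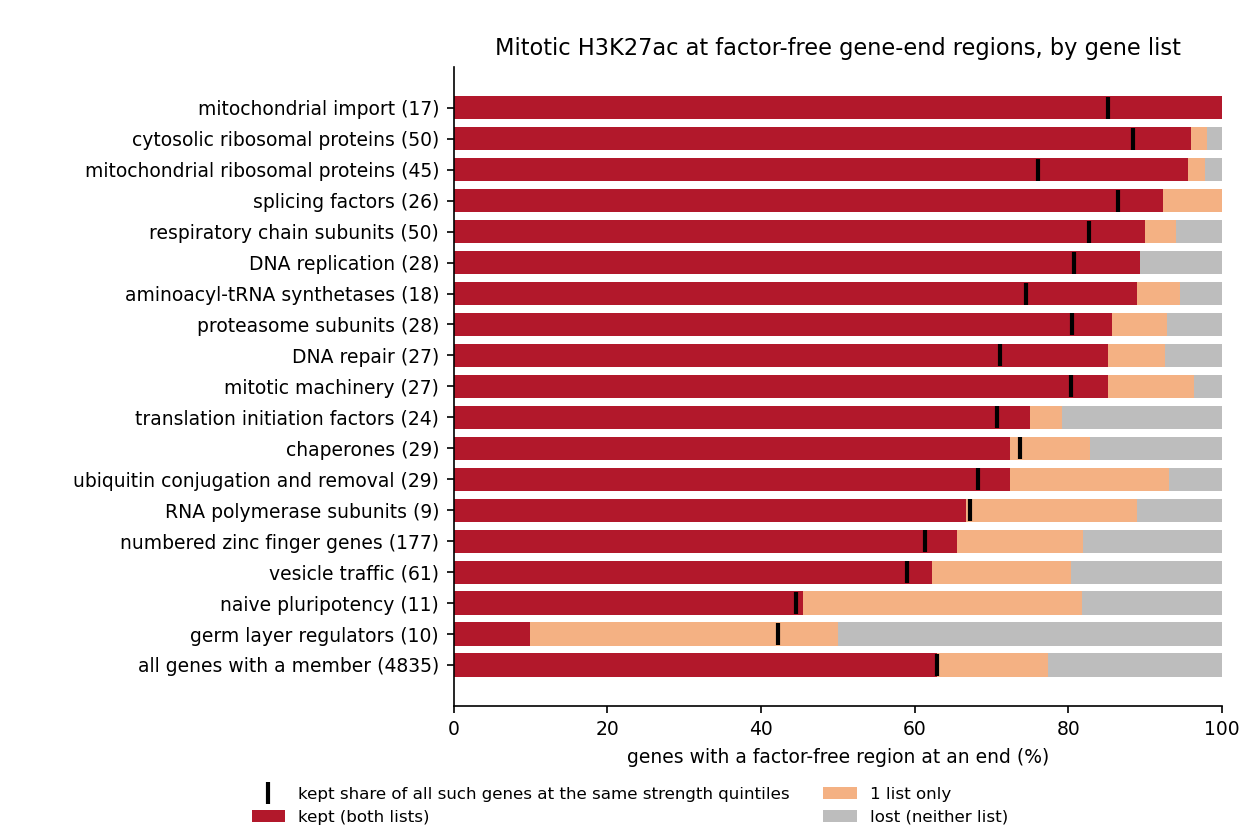
Share of genes with a factor-free gene-end region (horizontal axis, percent; number of genes in parentheses) whose region was kept in both mitotic H3K27ac lists, found in 1 list or lost. Black ticks give the kept share of all such genes at the same mix of strength quintiles; mitochondrial import stands at 100% and germ layer regulators at 10.0%.

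Strength again moved with the groups. At their own mix of quintiles, all genes with a region were kept at 88.4% where cytosolic ribosomal protein genes stood at 96.0%, at 76.1% where mitochondrial ribosomal protein genes stood at 95.6%, and at 85.1% where mitochondrial import genes stood at 100%. For respiratory chain genes the shares were 90% for the list and 82.7% for all genes, and for splicing factors 92.3% and 86.5%. They were 88.9% and 74.5% for aminoacyl-tRNA synthetases, 85.7% and 80.4% for proteasome subunits and 72.4% and 73.6% for chaperones. Among the lists of this paragraph, the Wilson interval left out the share of all genes only for mitochondrial ribosomal proteins (85.2 to 98.8%). For the others, a kept share above that of genes of like strength is not shown. The lists are small, no test of a list was made, and a gene with 2 regions counted as kept where either was. A region near several genes counted for each of them, as with Mrpl36 and Ndufs6, which share a region but stand in different lists.

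The X chromosome held less of the mitotic mark at these regions, and chromosome 8 more. Both were chosen after the values of all 20 chromosomes had been seen. Of 203 regions on the X, 42.9% (36.2 to 49.7%) were kept, against 58.2% of 4503 on autosomes, with recovery of 53.2% and 49.8% on the X, against 68.9% and 63.5% on autosomes, in mitotic 1 and 2. Median strength was 63.1 on the X and 66.8 on autosomes. Factor-bound gene-end regions on the X were kept at 48.9% of 94, against 72.0% elsewhere, whereas factor-free distal regions on the X were kept at 40.6% of 520, against 31.2% elsewhere. Over all asynchronous H3K27ac regions the kept share was 42.5% on the X and 48.1% elsewhere, and 59.8% on chromosome 8 and 47.3% elsewhere. On chromosome 8, 71.2% of 222 regions were kept (64.9 to 76.7%), against 56.9% on the other chromosomes, at a median strength of 64.9, against 66.7. The other classes were higher there too, with 83.3% of factor-bound gene-end regions kept on chromosome 8, against 71.0% elsewhere, and 39.3% of distal ones, against 31.3% elsewhere. Chromosome 8 held 6.36% and 6.56% of all peaks in mitotic 1 and 2, against 4.82% and 4.85% in asynchronous 1 and 2. Regions on chromosome 8 include those named at Cnot1, Tomm20, Mcm5, Ash2l, Abce1 and Gatad2a. The number of copies of chromosome 8 or of the X in these cells was not measured here.

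Mitotic Klf4, Oct4 and Sox2 peaks were scarce at regions that lacked them in asynchronous cells. At least 1 of the 3 mitotic Klf4 lists had a peak at 273 regions (5.80%), against 25.4% of all asynchronous H3K27ac regions. Oct4 had one in at least 1 mitotic list at 33 regions (0.701%), against 8.01% of all, and Sox2 at 33 (0.701%), against 9.23% of all. Among the factor-free distal regions, which also lacked asynchronous peaks, the shares were 3.24% for Klf4, 2.44% for Oct4 and 4.21% for Sox2. Oct4 and Sox2 were thus less frequent at the gene-end regions. Klf4 was more frequent there in mitotic libraries 1 (3.61%, against 0.809% of distal regions) and 2 (1.36%, against 0.378%). Klf4 library 3 ran the other way, with 1.55%, against 2.37% of distal regions. Part of the gap to all regions is fixed by the choice of regions free of asynchronous peaks. The asynchronous lists held 10575, 21307 and 16455 Klf4 peaks, but only 3347 for Oct4 and 2986 for Sox2. Mitotic libraries 1 and 2 held 1246 and 5282 peaks for Oct4, and 4537 and 1940 for Sox2. The choice was therefore less strict for Oct4 and Sox2 than for Klf4. The Klf4 peaks seldom recurred: mitotic Klf4 libraries 1, 2 and 3 had 170, 64 and 73 regions, and 33 regions were shared by 2 or more. At regions kept in mitosis Klf4 had a peak in 5.10% (library 1), 1.74% (library 2) and 1.55% (library 3), against 1.37%, 0.644% and 1.77% at lost regions. Klf4 libraries 1 and 2 share a project code with the mitotic H3K27ac libraries and library 3 does not, so a link between the marks and a link between libraries of a project cannot be told apart. The mixed sample had a Klf4 peak at 3 regions.

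The 51 regions with peaks in 2 or more mitotic factor libraries were led by Eif4a3 (the helicase of the exon junction complex), Ash2l, Abce1 (a ribosome recycling factor), Eif5a (a translation elongation factor) and Gatad2a (a subunit of the NuRD complex). At Ash2l, which encodes a core subunit of the H3K4 methyltransferase complexes (chr8:25846201-25847730), both mitotic Oct4 and both mitotic Sox2 lists had a peak and no mitotic Klf4 list did. Its H3K27ac folds were 7.93 and 7.99 in mitotic cells, against 29.0 and 24.6 in asynchronous cells. At Eif4a3, Abce1 and Eif5a, the peaks came from Klf4 mitotic 1 and 2.

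The lists behind these counts differed in length, with 36526 and 30771 H3K27ac peaks in mitotic 1 and 2, against 47475 and 46491 in asynchronous 1 and 2. All mitotic H3K27ac libraries carry one project code in their titles and all asynchronous ones another, so cell state and project cannot be told apart in any comparison of the 2 states. Of 8 stem cell markers, 7 had an H3K27ac peak within 1 kb of a gene end in each of the 4 lists (Esrrb did not). Of 8 feeder fibroblast markers, 1 and 0 did in mitotic 1 and 2, against 2 and 1 in asynchronous 1 and 2, and of 8 neural progenitor markers, 3 and 1, against 3 and 5. At the edges of the rule, the widest regions inside it were at Rps7 (4986 bp) and 5430403G16Rik (4929 bp), both kept, and the narrowest outside were at Fsbp (5091 bp, kept) and Trim25 (5105 bp, lost). By distance, regions at Wdcp (1000 bp, lost) and Rpl13 (999 bp, kept) were just inside and those at Smn1 (1001 bp, kept) and Zfp597 (1002 bp, lost) just outside.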

How the data were processed

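Peak lists were read for 17 of the 24 samples; the 7 inputs had no list and were not used. Per the submitters' processing notes, reads were handled with cutadapt 1.8.1, Bowtie2 2.2.5 on mm10, deepTools 2.3.6 and MACS2 2.1.1. Each deposited list holds the peaks of 1 library, with a fold (a ratio) and −log10 p and q values as the authors gave them; depth was not given, and every listed −log10 p was at least 5. Peaks were merged at 1 bp of overlap, and a region was recovered where a mitotic peak shared 1 bp with it. Gene ends came from RefSeq GRCm38.p6 (21887 protein-coding genes), and strand and promoter sequence from a RefSeq table that matched 17492 of them by symbol. Python 3.11.15, numpy 2.4.6, pandas 2.3.3 and matplotlib 3.10.9 were used, and the merging, overlap and distance steps were tested on simulated regions.

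The regions, gene lists and motifs were chosen with earlier results of these data known. Named genes followed a rule: the 10 strongest kept, 10 strongest lost and 5 strongest regions in 1 mitotic list, the strongest and strongest lost of each gene list, the 5 strongest with peaks in 2 or more mitotic factor libraries, and 2 on each side of a threshold. Some genes that the rule or a list names are not reported here. Rpsa, Mcm5, Incenp, Aurkb and the single developmental and pluripotency genes were added after their values were seen. Differences were taken within each mitotic library and tested with an exact permutation (sign flip) test over 2 libraries. Alternatives changed the −log10 q minimum, list length, overlap, gene-end window, width, factor exclusion, strength, and the libraries used.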

Additional observations from a re-analysis of the deposited data

How the results depend on the processing

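In factor-free gene-end regions, both differences in recovery kept their direction under each of the 18 alternatives run. They ranged from −18.9 to −3.36 points against factor-bound gene-end regions and from 8.61 to 28.4 against distal ones; standardised over strength quintiles they were −3.63 and 8.61. With lists of equal length 67.3% were kept, 17.6% lost and mean recovery was 74.8%. Where mitotic peaks had to cover at least 50% of a region the values were 44.8%, 38.1% and 53.3%. Where a mitotic peak within 500 bp also counted, an alternative chosen after seeing the data, they were 63.1%, 21.7% and 70.7%. Under a width limit of 2000 bp 53.2% were kept. Leaving out 1 H3K27ac library in turn gave 49.1% to 68.2% kept, 31.8% to 37.1% lost and a mean recovery of 57.1% to 68.2%. The lowest kept share came without asynchronous library 2. Here a peak in the library left suffices, so more regions enter or pass; the cause of the other shifts was not tested.

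No paired analysis was possible because replicate numbers of mitotic and asynchronous H3K27ac libraries come from different projects, and each difference is taken within a mitotic library. Depth is unknown, so weak mitotic signal and its absence cannot be told apart.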
